A study of Homo sapiens with 20 samples.

Results

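The genes described here are 4 CDC-like kinases (CLK1, CLK2, CLK3 and CLK4), both L-type cyclins (CCNL1 and CCNL2), FAM193B and 2 LUC7-like genes (LUC7L and LUC7L3). They are 9 of the 57773 genes counted by RNA-seq, and were picked as splicing regulators with detained introns of which several are lower with doxycycline. They were thus chosen by the values of the doxycycline comparison, which are given below as a description, without a test. The cells were LNCaP, a human prostate cancer line. In the first experiment they received 20 nM of nontargeting siRNA (siNTC) or of an siRNA pool against the histone methyltransferase EHMT1 (siEHMT1). Treatment lasted 2 days, with 2 samples per group. In the second, 4 stable LNCaP lines made with lentivirus carried a tetracycline-inducible EHMT1, either WT or with arginine in place of lysine (K450R, K451R and K450RK451R), and were given vehicle (Veh) or 0.25 µg/mL doxycycline (Dox) for 2 days. All stable lines keep their own EHMT1 gene, the lines were made by infection and puromycin selection, and no line without the EHMT1 construct was analysed here, so an effect of the antibiotic and an effect of the induced EHMT1 cannot be told apart.

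CLK kinases phosphorylate the serine- and arginine-rich (SR) proteins that guide the spliceosome to exons. Cyclin L proteins partner with the CDK11 kinases, which act in transcription and splicing, and LUC7-like proteins belong to the U1 snRNP particle that recognizes the start of an intron. Many transcripts of such regulators are held in the nucleus with a few introns still in place. CLK1 is the standard example: its introns 3 and 4, on both sides of the alternative exon 4, remain in a large part of its polyadenylated RNA and are removed when CLK activity falls. Gene counts of total RNA add spliced and unspliced molecules, so a gene's level below does not tell the forms apart. A count table for a whole culture also cannot separate fewer cells of a type from less RNA per cell.

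The library totals were 5593400 to 12438006 counts in the siRNA samples. The columns of a stable-line condition held 4168199 to 6272708 counts and differed from each other by no more than counting noise (chi-square per degree of freedom 0.995 to 1.02), so each pair was summed and counted as 1 sample. Levels are CPM, counts scaled to library size after TMM normalization within a table. EHMT1 itself followed its labels: it fell by 1.51 on the log2 scale with siEHMT1 (edgeR adjusted p = 1.48e-07) and was 2.90 to 3.38 higher on the log2 scale with Dox in the 4 lines. The 9 luminal prostate markers summed to 5995 to 12872 CPM in every sample, against at most 1.52 CPM for 3 basal, 0.735 CPM for 5 immune and 41.6 CPM for 5 fibroblast markers, and 2 of the 3 basal, 3 of the 5 immune and 3 of the 5 fibroblast markers were at 3 counts or fewer everywhere.

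Positions are those of the GENCODE annotation on GRCh37, the build of the deposited counts. CLK1 lies on chr2:201717732-201729414, CLK2 on chr1:155232659-155248282, CLK4 on chr5:178029665-178057616, CCNL1 on chr3:156864297-156878549, CCNL2 on chr1:1321091-1334715, FAM193B on chr5:176946790-176981587 and LUC7L on chr16:238968-279462, all on the minus strand. CLK3 on chr15:74890841-74937755 and LUC7L3 on chr17:48796926-48833580 are on the plus strand. Models that keep an intron made up 16 of the 26 annotated transcripts of CCNL1, 8 of 14 for CLK1, 7 of 13 for CLK4, 8 of 27 for CLK3 and 9 of 19 for CCNL2. CLK2 had none among 7 transcripts. FAM193B had 4 of 19, LUC7L 7 of 21 and LUC7L3 3 of 23. In the canonical transcript, an annotated intron-keeping model spanned introns 2, 3, 4 and 7 of CLK1, 3 and 4 of CLK3, 3, 4, 11 and 12 of CLK4, and 2, 4, 5, 6, 7 and 8 of CCNL1. None of the intron-keeping models of CCNL2, FAM193B, LUC7L and LUC7L3 spanned a whole intron of the canonical transcript. Parts of CLK3 lie opposite EDC3, CLK4 contains an RN7SK pseudogene and CCNL1 lies opposite a Y RNA gene. The sources used here do not say whether strand was used in counting, so reads of these overlaps may be assigned to either gene.

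The splice sites of introns 3 and 4 of the 4 kinases are shown because these introns flank the regulated exon 4 and are annotated as kept in CLK1, CLK3 and CLK4 but not in CLK2. Each start site is the last 3 exon and the first 6 intron bases, and each end site the last 20 intron and the first 3 exon bases, read 5′ to 3′ on the gene's strand of GRCh37, with the invariant ends of the intron in capitals. Intron 3 is chr2:201724939-201725960 in CLK1, chr1:155238587-155239278 in CLK2, chr15:74912567-74914460 in CLK3 and chr5:178044436-178045556 in CLK4. Intron 4 is chr2:201724470-201724847, chr1:155238151-155238498, chr15:74914558-74914834 and chr5:178043950-178044344 in the same order.
CLK1 intron 3 start: gggGTatga
CLK2 intron 3 start: tcgGTgagt
CLK3 intron 3 start: tcgGTgagt
CLK4 intron 3 start: tcgGTatga
CLK1 intron 4 start: gatGTatag
CLK2 intron 4 start: gatGTacaa
CLK3 intron 4 start: gatGTacag
CLK4 intron 4 start: gatGTatag
CLK1 intron 3 end: cgcccacttgacgtttccAGaag
CLK2 intron 3 end: ccccccctgccccccgacAGcag
CLK3 intron 3 end: tcggggggcggtgcatgcAGaga
CLK4 intron 3 end: ctgcccacttgccgttccAGaag
CLK1 intron 4 end: gatttatttctctcttttAGatg
CLK2 intron 4 end: cctgctctctttcatttcAGatg
CLK3 intron 4 end: caatttcttttctctcctAGatg
CLK4 intron 4 end: tttttccctcctcactctAGatg
All 4 intron 4 start sites share the exon end gat and match 4 of the 9 letters of CAGGTAAGT, the run that pairs fully with U1 RNA. At intron 3 the match is 5 letters in CLK1 and CLK4 and 6 in CLK2 and CLK3. CLK1 and CLK4 share the whole intron 4 start site. These letters are a description, and the annotated models do not tell how often an intron is kept in these cells.

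**Figure D1:**
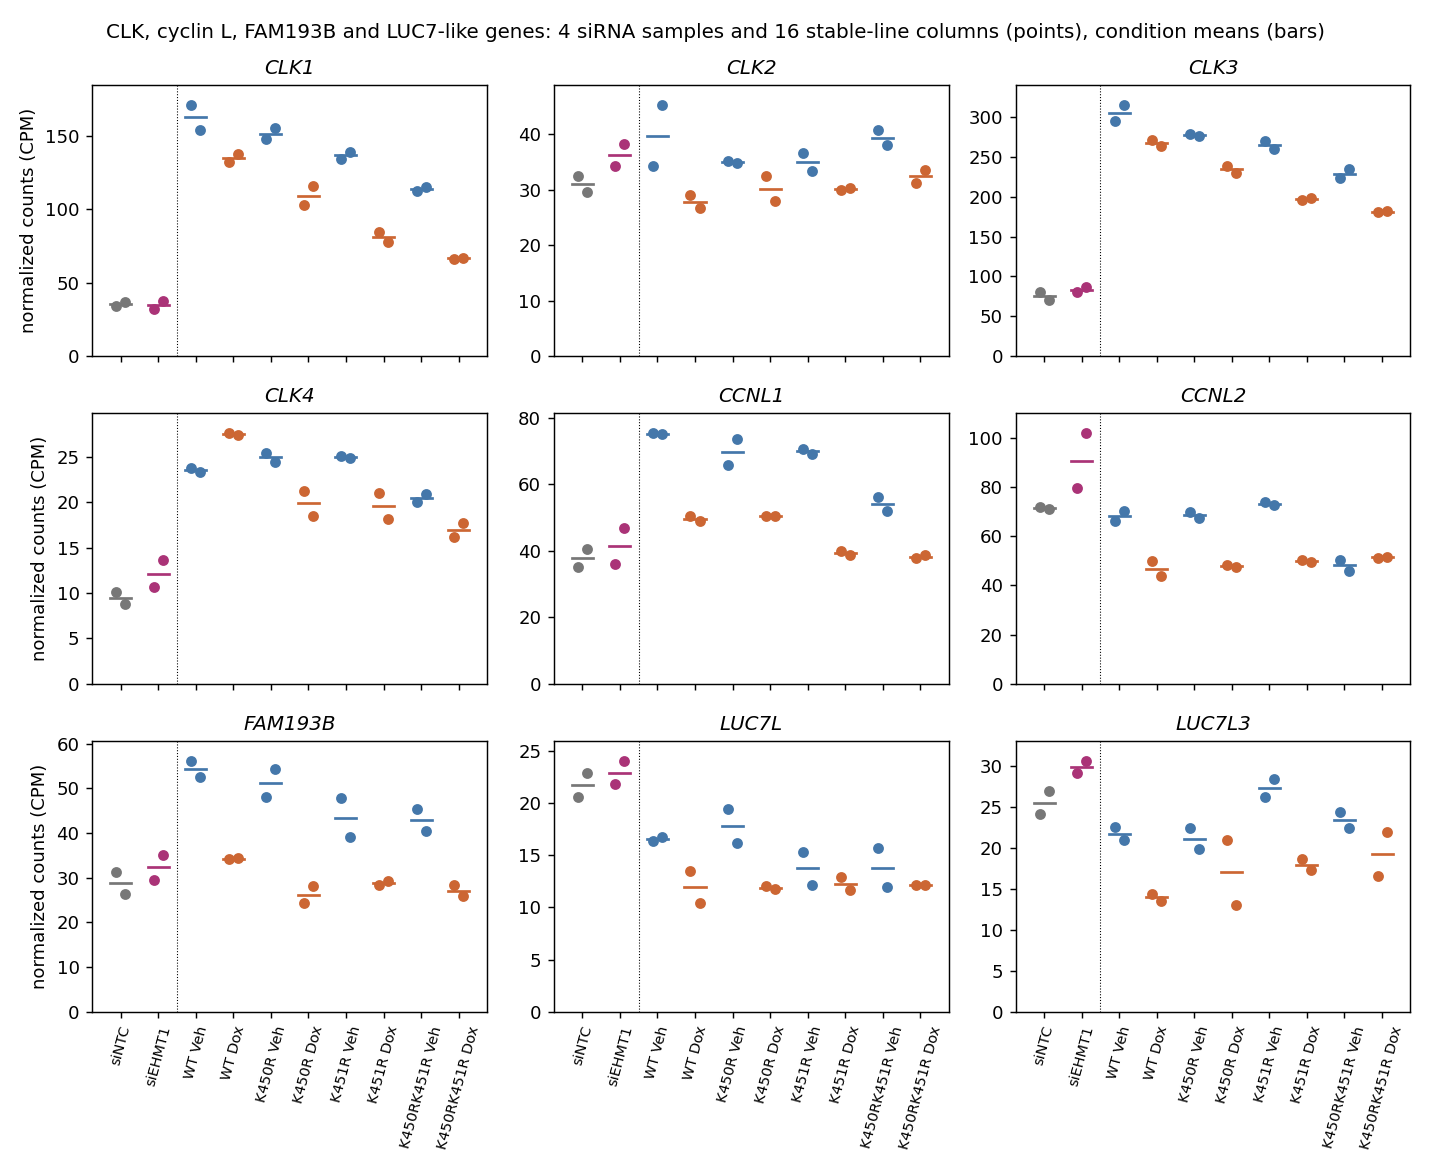
Levels in CPM (vertical axes, from 0) of the 9 genes in each of the 10 conditions (horizontal axis), for 4 siRNA samples and 16 stable-line columns (points) with the mean of each condition (bars). CLK1 lies at 66.5 to 134.7 CPM in Dox and 113.7 to 161.8 CPM in Veh, and CLK4 in the WT line is higher in Dox (27.5 CPM) than in Veh (23.5 CPM). The dotted line separates 2 tables that were scaled separately.

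With vehicle, CLK1 was the highest of the 9 genes per length at 27.6 ± 4.10 CPM per kb of annotated exon (SD, n = 4 lines). CLK3 followed at 13.7 ± 1.58, CLK2 at 10.2 ± 0.708, CCNL2 at 9.43 ± 1.62, FAM193B at 8.20 ± 0.964 and CCNL1 at 7.69 ± 1.04 CPM per kb. CLK4 (2.96 ± 0.266), LUC7L3 (2.88 ± 0.342) and LUC7L (2.51 ± 0.333 CPM per kb) were lowest. From CLK2 to CCNL1, neighbours in this order differed by less than the larger of their SDs, as did CLK4 and LUC7L3, while LUC7L3 and LUC7L differed by slightly more than either SD. In the siNTC samples CCNL2 was highest at 10.4 ± 0.0598 CPM per kb (SD, n = 2), ahead of CLK2 at 8.48 ± 0.561 and CLK1 at 6.91 ± 0.457. Exon lengths join all annotated models, those that keep an intron included, and a longer exon length lowers a gene's value on this scale. CLK3 had 19.7 kb of exon, 42.0% of its span. The share of the span was 61.2% for CCNL1, 50.2% for CCNL2 and 43.8% for CLK1.

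The question of the stable lines was what inducing EHMT1, WT or mutant, does to the transcriptome. All 9 genes were on average lower with Dox, by 11.5% (CLK4) to 39.3% (FAM193B). The median log2 fold change over the 9 was -0.39, against 0.0050 over the 14105 genes tested. Of the 36 combinations of gene and line, 34 were lower with Dox, as were 48.5% of such combinations over all genes. The 95% counting interval of the ratio lay below 0 in 28 of them and above 0 in 0, against 13.6% and 14% of the combinations over all genes. Of the 9 genes, 7 were lower in all 4 lines, as were 9.72% of all genes, and in 5 all Dox levels lay below all Veh levels, as for 2.08% of all genes. Because this contrast chose the genes, nothing is read from these shares. The rule has no threshold, so there are no members just inside or outside one.

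Among the kinases, CLK1, which controls its own splicing through exon 4, had Veh levels of 161.8, 152.1, 136.5 and 113.7 CPM in the WT, K450R, K451R and K450RK451R lines (the same order is used below). Its Dox levels were 134.7, 109.5, 80.9 and 66.5 CPM. Every line was lower with Dox, but WT with Dox stayed above K450RK451R with Veh, so the groups overlapped. The log2 ratios were -0.26 (counting interval -0.37 to -0.16), -0.47 (-0.59 to -0.35), -0.75 (-0.88 to -0.63) and -0.77 (-0.90 to -0.64). The intervals of WT and K450R did not reach those of K451R and K450RK451R, which covers counting error only, since a line has 1 sample per treatment. Over the lines CLK1 was 32.5% lower, a log2 fold change of -0.57 (SE 0.073).

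CLK3 followed the same order of lines at a higher CPM. Per kb of exon it was lower than CLK1 with vehicle (13.7 against 27.6 CPM per kb). Its Veh levels were 304.2, 278.8, 264.8 and 229.5 CPM and its Dox levels 267.1, 235.5, 196.5 and 181.3 CPM. The levels of CLK1 and CLK3 had a Pearson r of 0.990 over the 8 conditions, the highest of the 36 pairs of genes, with the WT line high and the K450RK451R line low in both treatments. The log2 ratios of CLK3 were smaller than those of CLK1 in each line, from -0.19 in WT to -0.43 in K451R, and all 4 counting intervals were below 0.

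CLK2, whose annotation holds no intron-keeping model, had Veh levels of 39.7, 35.2, 35.0 and 39.4 CPM and Dox levels of 27.8, 30.2, 30.1 and 32.4 CPM. These summed levels did not overlap, and the Veh lines did not fall in the order seen for CLK1 and CLK3. Single columns of CLK2 overlapped slightly, with a K451R Veh column at 33.5 CPM and a K450RK451R Dox column at 33.6 CPM. The log2 ratio was -0.51 in WT and -0.22 to -0.28 in the mutant lines, where the interval was below 0 only in K450RK451R. The 2 columns of WT with Veh held 199 and 270 counts of CLK2, and the lower one, at 34.3 CPM, still lay above the 27.8 CPM of WT with Dox.

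CLK4, the close relative of CLK1, had the lowest levels of the kinases and the smallest average change, 11.5% (log2 fold change -0.18, SE 0.11). Its Veh levels were 23.5, 25.0, 24.9 and 20.5 CPM and its Dox levels 27.5, 19.9, 19.5 and 16.9 CPM. The WT line went the other way from the mutant lines: its log2 ratio was 0.23 (interval -0.024 to 0.48), against -0.33, -0.35 and -0.28. On 277 and 244 counts, the WT difference was within counting error.

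Among the cyclins, CCNL1 was lower with Dox in each line. Its Veh levels were 74.9, 70.0, 69.7 and 54.1 CPM and its Dox levels 49.6, 50.7, 39.1 and 38.1 CPM, which did not overlap. The log2 ratios ran from -0.46 in K450R to -0.83 in K451R (interval -1.01 to -0.66), and the average was 34.3% lower (log2 fold change -0.61, SE 0.077). CCNL1 was also the gene whose levels were most like the mean of the other 8 (Pearson r 0.967 over 8 conditions).

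CCNL2 was lower by a like amount in 3 lines and not in the K450RK451R line. Its Veh levels were 67.8, 68.9, 73.1 and 48.2 CPM. Its Dox levels were 46.8, 48.1, 49.8 and 51.3 CPM, so all Dox values and the K450RK451R Veh value lay close together. The log2 ratios were -0.54, -0.52 and -0.55 in WT, K450R and K451R, with all intervals below 0, and 0.09 (interval -0.083 to 0.26) in K450RK451R. The K450RK451R line had the lowest Veh level of the 4 lines, 48.2 CPM. Whether the lines differ was not tested, as each has 1 sample per treatment.

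FAM193B, a gene of little-known function, had the largest average change, 39.3% lower (log2 fold change -0.72, SE 0.086). Its Veh levels were 54.1, 51.3, 43.3 and 43.0 CPM and its Dox levels 34.3, 26.3, 28.8 and 27.1 CPM. The groups did not overlap. The log2 ratios were -0.66, -0.96, -0.59 and -0.67, and the intervals of the 4 lines overlapped between -0.81 and -0.73.

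The LUC7-like genes rest on few counts, as does CLK4. LUC7L had Veh levels of 16.5, 17.9, 13.7 and 13.8 CPM and Dox levels of 11.95, 11.93, 12.2 and 12.1 CPM, so the Dox levels were almost the same in the 4 lines. Only WT and K450R had an interval below 0, with 106 to 195 counts per condition in these lines. Single columns of LUC7L overlapped between treatments, with a K450RK451R Veh column at 11.9 CPM and a WT Dox column at 13.5 CPM. LUC7L3 had Veh levels of 21.7, 21.2, 27.3 and 23.5 CPM and Dox levels of 14.0, 17.04, 17.9 and 19.3 CPM. These summed levels did not overlap, and the average was 27.5% lower (log2 fold change -0.46, SE 0.11). Single columns did overlap. The K450R Dox columns of LUC7L3 held 98 and 62 counts (21.0 and 13.0 CPM), and the lower K450R Veh column was at 19.9 CPM. The K450R counting interval reached 0.0037.

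**Figure D2:**
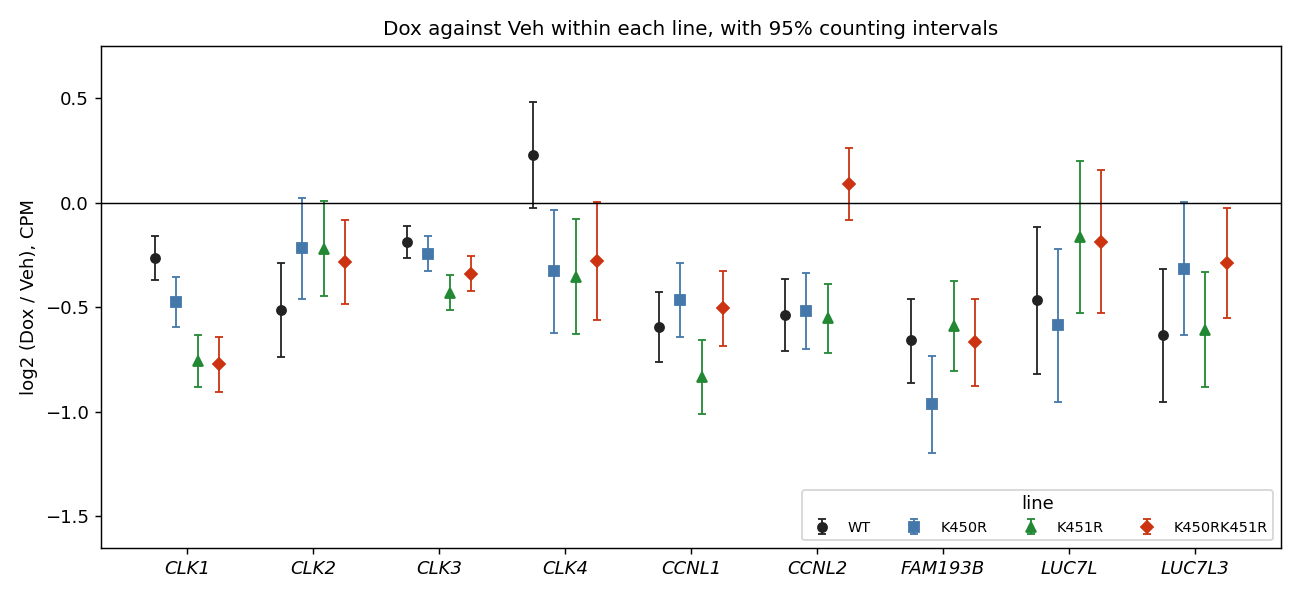
Log2 ratio of Dox to Veh CPM (vertical axis) of each gene in the 4 lines (symbols), with 95% counting intervals (bars). Points above 0 are CLK4 in WT (0.23) and CCNL2 in K450RK451R (0.09), and the intervals of CLK1, CLK3, CCNL1 and FAM193B lie below 0 in every line.

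By line, the median log2 ratio of the 9 genes was -0.51 in WT (8 lower), -0.46 in K450R (9 lower), -0.55 in K451R (9 lower) and -0.29 in K450RK451R (8 lower). The median over all genes was within 0.018 of 0 in each line. Summed levels of nuclear noncoding RNAs were also lower with Dox in each line. The 6 listed RNAs, which include MALAT1 and NEAT1, summed to 4221, 3519, 2727 and 2209 CPM in Veh and to 1764, 1784, 1223 and 1694 CPM in Dox. The K450RK451R line had the lowest Veh sum and the smallest drop. Mitochondrially encoded mRNAs summed to 768, 697, 1025 and 729 CPM in Veh and to 458, 865, 577 and 476 CPM in Dox, higher in K450R only. The part of RNA composition in the Dox values was not tested.

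Silencing EHMT1 was the comparison that the choice of genes did not use. None of the 9 genes changed at an adjusted p under 0.05 in edgeR's quasi-likelihood test. CCNL2 alone had an unadjusted p under 0.05 (0.00667, adjusted p = 0.292), where 4.46% of the 14532 genes tested were higher and 5.09% lower. At an adjusted p under 0.05, 9 genes (0.0619%) were higher and 10 (0.0688%) lower, so few calls were made for any gene. The log2 fold change was positive in 8 of the 9 genes, with a median of 0.15, while 49.6% of all genes were positive and their median was -0.0021. The median of the 9 was 0.082 without siEHMT1 replicate 2, 0.27 without siEHMT1 replicate 1 and 0.23 without siNTC replicate 1.

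CCNL2 read 71.6 and 71.1 CPM in the siNTC samples and 79.4 and 101.9 CPM in the siEHMT1 samples. Both siEHMT1 samples were above both controls, and the log2 fold change was 0.34 (SE 0.11). It was 0.15 without siEHMT1 replicate 2 and 0.51 without siEHMT1 replicate 1. The same separation held for CLK2 (32.5 and 29.6 against 34.2 and 38.3 CPM), CLK4 (10.1 and 8.8 against 10.7 and 13.6 CPM) and LUC7L3 (24.1 and 27.02 against 29.2 and 30.7 CPM). These 4 of the 9 genes compare with 20.1% of all genes, and 0 of the 9 were separated downward (19.2% of all genes). The log2 fold changes of the 3 were 0.22 (SE 0.13, adjusted p = 0.605), 0.35 (SE 0.21, adjusted p = 0.618) and 0.23 (SE 0.13, adjusted p = 0.618) by edgeR. Without siEHMT1 replicate 2, CLK2 was at 0.14 and CLK4 at 0.16, and LUC7L3 was at 0.14 without siNTC replicate 1.

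For the other 5 genes the groups overlapped. CLK1 read 33.7 and 37 against 32.0 and 37.5 CPM (log2 fold change -0.026, SE 0.13), and its sign was positive under total-count scaling. CLK3 read 80.2 and 70.1 against 79.8 and 86.6 CPM (0.14, SE 0.10). CCNL1 read 35.1 and 40.5 against 36.0 and 46.7 CPM (0.13, SE 0.14). In each of these genes the overlap came from the siEHMT1 replicate 1, which lay within the range of the controls or, for CLK1, below it. FAM193B (31.3 and 26.4 against 29.6 and 35.1 CPM) and LUC7L (20.6 and 22.9 against 21.8 and 24.1 CPM) differed by a log2 fold change of 0.15 (SE 0.14) and 0.077 (SE 0.15). The edgeR adjusted p of these 5 genes was 0.693 to 0.979. The standard errors over the 9 genes were 0.10 to 0.21, so these values do not show that the levels were the same.

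The siEHMT1 replicate 2 was the highest of the 4 samples in all 9 genes. It also had the highest sum of nuclear noncoding RNAs, 2413 CPM against 1236 to 1519 CPM in the other 3. Without it, CCNL1 turned to -0.071 and 7 of the 9 genes were positive. Without it, NEAT1 went from 0.56 to -0.018 and MALAT1 from 0.49 to -0.15. The siNTC replicate 2 had 10.0% of its counts in 2 pseudogenes that resemble ribosomal RNA, against at most 1.00% in the other samples. With these pseudogenes left out, 8 of the 9 genes were positive and their median was 0.15. The part of the nuclear noncoding RNA difference in the values of the 9 genes was not tested.

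**Figure D3:**
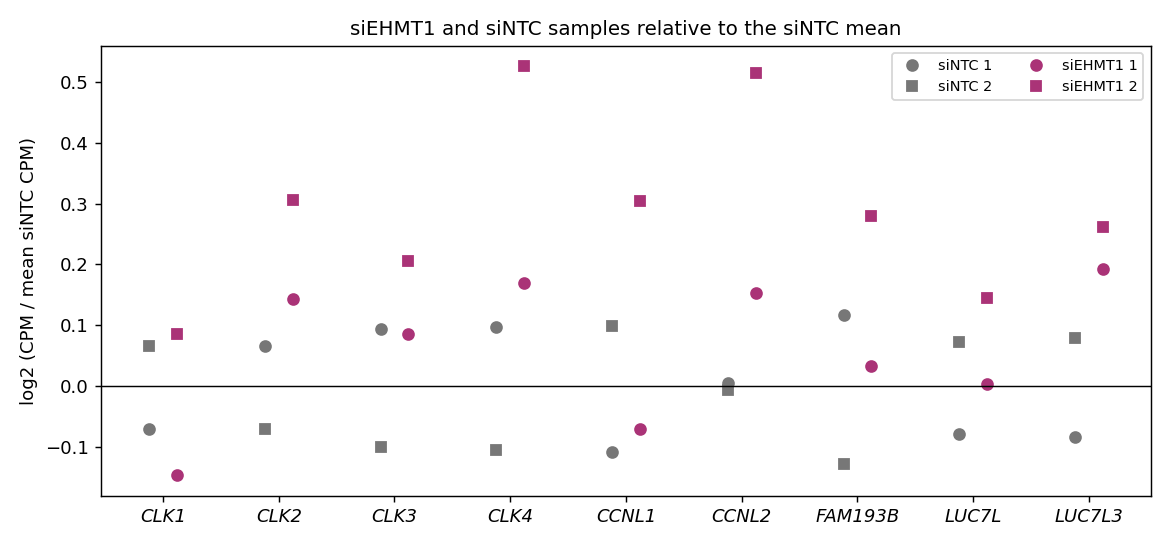
Log2 ratio of each siRNA sample's CPM to the mean of the siNTC samples (vertical axis) for the 9 genes, with the replicate shown by symbol. The siEHMT1 replicate 2 lies highest for every gene, up to 101.9 CPM for CCNL2 where the siNTC mean is near 71 CPM, and CLK1, CLK3, CCNL1, FAM193B and LUC7L overlap between groups.

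The level of some of the genes differed between the controls of the experiments, the siNTC-transfected cells and the lines given vehicle. CLK1 was 3.99-fold, CLK3 3.59-fold and CLK4 2.48-fold higher in the Veh lines than in the siNTC samples, on means of CPM scaled within each table. These were the 3 of the 9 over 2-fold, where 9.09% of 13617 genes were over 2-fold higher and 13.2% over 2-fold lower. CCNL1 (1.78-fold), FAM193B (1.66-fold) and CLK2 (1.20-fold) were between, and LUC7L3 read 0.916-fold, CCNL2 0.904-fold and LUC7L 0.711-fold, where the median over all genes was 0.933-fold. With both tables scaled together LUC7L3 was at 1.01-fold and CCNL2 at 0.999-fold, so no direction is given for them, while LUC7L was at 0.786-fold. The lowest Veh line was still 3.07-fold above the higher siNTC sample for CLK1. Mitochondrially encoded mRNAs summed to 4169 and 5335 CPM in siNTC, against 697 to 1025 CPM in Veh. Nuclear noncoding RNAs summed to 1236 and 1519 CPM in siNTC, against 2209 to 4221 CPM in Veh. The cells differ in construct, selection, serum and transfection, and the tables in scaling and RNA composition. These factors cannot be told apart and no test was made.

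Other genes of the pathway were taken from lists written by hand, with earlier results of these data known. They were tested in both comparisons. With Dox, 1.51% of all genes were lower and 0.603% higher at an adjusted p under 0.05 (213 and 85 genes), or 108 lower and 326 higher with total-count scaling. The list of SR protein kinases and relatives, CLKs left out, held SRPK, PRPF4B, DYRK and HIPK genes. None of the 8 tested passed at an adjusted p under 0.05 by edgeR. Their median log2 fold change was 0.010, with HIPK2 at 0.10 (SE 0.061) and HIPK3 at -0.017 (SE 0.066). Of 14 tested cyclins and CDKs of transcription and splicing, none passed either. Their median was -0.025, with CDK19, a Mediator kinase, at 0.033 and CCNT1, the cyclin of P-TEFb, at -0.023. The direction of HIPK3 and CCNT1 flips with total-count scaling.

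Of 16 tested U1 snRNP genes and partners, 1 fell: PRPF39, a U1-associated factor (log2 fold change -0.33, edgeR adjusted p = 0.0296), with a list median of -0.070. PRPF39 passed no longer without any 1 of the 3 mutant lines (adjusted p = 0.0748 to 0.182) with total-count scaling, with DESeq2 or without a filter. Of 13 tested SR proteins, the substrates of the CLKs, 1 fell: SRSF4 (-0.30, adjusted p = 0.0160), with a median of -0.090. SRSF4 was lower by 0.44 and 0.47 on the log2 scale in K450R and K450RK451R and by 0.10 and 0.16 in WT and K451R. It passed no longer without K450R (edgeR adjusted p = 0.184) or K450RK451R (adjusted p = 0.121), or with total-count scaling (adjusted p = 0.0890).

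Of the 30 other genes known for detained or retained introns, 7 fell and 0 rose with Dox, and 29 had a negative log2 fold change, as did 48.8% of all genes. The list median was -0.23. The largest of those that passed were C1orf63, an SR-related protein gene (-0.51, edgeR adjusted p = 0.00398), and DDX39B, an RNA helicase of splicing and export (-0.49, adjusted p = 0.000870). PABPN1, the nuclear poly(A)-binding protein, was at -0.44 (adjusted p = 0.0227). OGT, the enzyme that adds GlcNAc to nuclear proteins and a standard case of a detained intron, was at -0.33 (adjusted p = 0.0144). DDX39B, PABPN1 and OGT were lower in each line, and C1orf63 was at -0.031 in WT and between -0.54 and -0.83 in the mutant lines. PABPN1 and OGT passed no longer without the WT line (edgeR adjusted p = 0.0871 and 0.106). The count of 7 became 1 (DDX39B) without the K450R line, 4 without the K451R line and 2 with total-count scaling, while 27 to 30 of the genes stayed negative in these and the other settings.

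The same direction was seen in lists with other roles. NEAT1, the scaffold of paraspeckles, fell by 1.55 (edgeR adjusted p = 4.42e-08) and MALAT1, an RNA of nuclear speckles, by 0.92 (adjusted p = 5.29e-09) on the log2 scale, 2 of 5 nuclear noncoding RNAs tested. Of 10 tested heat shock genes 4 fell: HSPA1B (-0.76), DNAJB1 (-0.39), HSP90AA1 (-0.37) and HSPB1 (-0.35), and HSPA1B has a near-identical copy that may share its reads. In WT, HSPA1B was at 0.09 and HSPB1 at -0.022, while DNAJB1 was at -0.20 and HSP90AA1 at -0.33. In the mutant lines HSPA1B was at -1.13 to -1.14 and HSPB1 at -0.42 to -0.47. Of 9 mitochondrially encoded mRNAs 2 fell, MT-CO1 (-0.57) and MT-CO3 (-0.42), and both were higher in K450R (0.12 and 0.23). These 2 calls became 5 without the K450R line, 1 without the K451R line and 0 with DESeq2, and the 4 heat shock calls became 2 without the K450R line or with DESeq2.

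With siEHMT1, none of these lists had a gene at an adjusted p under 0.05. The median of the 30 detained intron genes was 0.069, with 8 negative. DDX39B was at 0.42 (SE 0.17, edgeR adjusted p = 0.437), C1orf63 at 0.21 (SE 0.21), OGT at 0.14 (SE 0.12) and PABPN1 at -0.12 (SE 0.14). The cyclins and CDKs had a median of 0.016, the U1 genes of 0.047 and the SR proteins of 0.029. The SR protein kinases and relatives had a median of -0.029. Some calls appeared when 1 sample was left out: NEAT1 and MALAT1 without siNTC replicate 2 (0.78 and 0.64) or siEHMT1 replicate 1 (0.97 and 0.93), MT-CO1 and MT-CO3 without siNTC replicate 2 (0.59 and 0.62), and DDX39B without siEHMT1 replicate 1 (0.73, edgeR adjusted p = 0.0338). Without siEHMT1 replicate 2, DDX39B was at 0.0080 (edgeR adjusted p = 0.993).

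**Figure D4:**
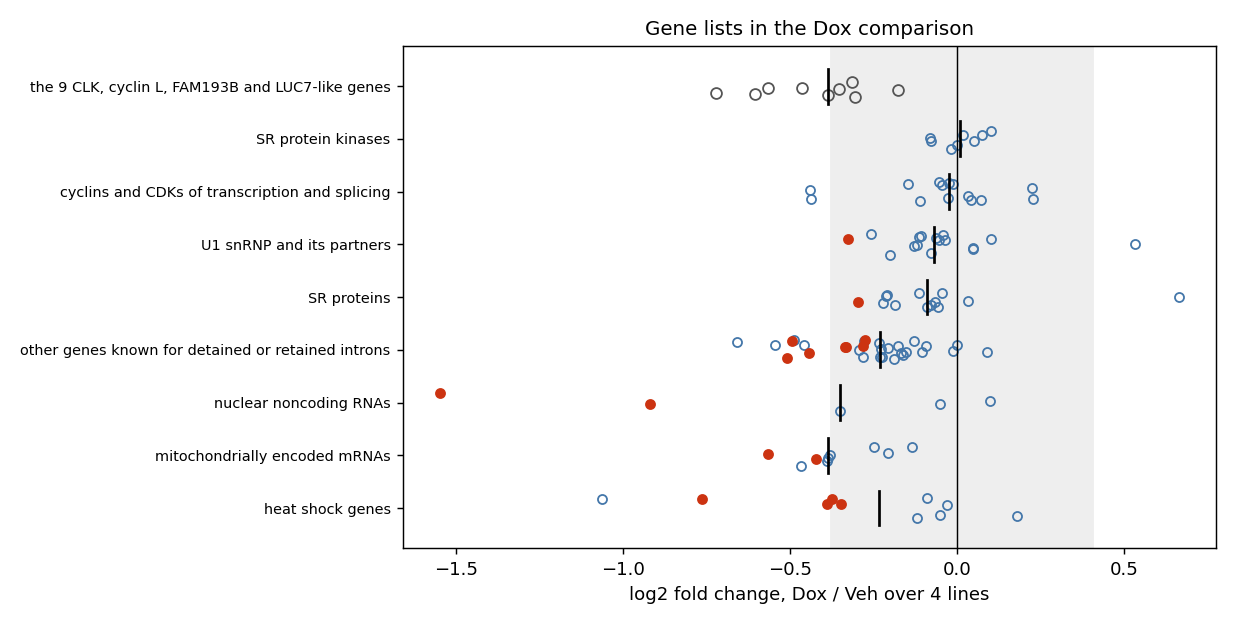
Log2 fold change of Dox against Veh over the 4 lines (horizontal axis) for the 9 genes and 8 lists (rows), with each list's median (bar) and the 5th to 95th percentile of all genes (grey, -0.38 to 0.41). Filled points are list genes at an edgeR adjusted p under 0.05, and the 9 genes carry no test. The medians are -0.39 for the 9 genes and -0.23 for the other detained intron genes, against 0.010 for SR protein kinases and relatives.

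The 9 genes varied together over the 8 stable-line conditions. Of the 36 pairs, 35 had a positive Pearson r, with a median of 0.682 and a range of -0.0040 to 0.990. The conditions share lines, libraries and the treatment that chose the genes, so this is a description. Among 9136 genes with a mean of at least 100 counts, the 5 whose log2 levels were most like the mean pattern of the 9 were SLC26A6 (r 0.977), ALS2CL (0.970), TMEM184A (0.964), RHPN1 (0.961) and PSRC1 (0.958), over 8 conditions. These 5 genes were picked by that likeness over the same conditions, so nothing is read from their ratios. SLC26A6, an anion exchanger, had log2 ratios of -0.44, -0.60, -0.41 and -0.35 in the 4 lines. ALS2CL had -0.73, -0.73, -0.88 and -0.35, with the smallest drop in K450RK451R, as for the nuclear noncoding RNAs.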

How the data were processed

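Total RNA of LNCaP cells was made into stranded libraries and read as 51 nt single ends. The authors mapped reads to hg19 and deposited raw counts per gene, with STAR 2.7.2, featureCounts 1.6.4 and FastQC 0.11.9 in the submitters' processing notes. Which annotation release was counted, and whether by strand, is not given in the sources used here. Column names gave the sample of each column, and 0 columns were left unmatched. Columns of a stable-line condition were summed after the chi-square check (genes with at least 20 summed counts). siNTC and siEHMT1 samples differed by more than counting noise and were kept as replicates. The main fit did not pair them by number. The correlation of same-numbered deviations was -0.0021 over 14532 genes, which with 2 samples per group cannot exclude a pairing. The labels do not say whether samples came from separate cultures, so p-values measure only the spread between these samples.

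Counts were filtered with filterByExpr, scaled by TMM and tested with the quasi-likelihood method of edgeR 4.0.16 in R 4.3.3, siRNA samples alone and the 8 stable-line conditions with line as a covariate and the lines as replicates. P-values were adjusted by Benjamini-Hochberg over all genes tested. The planned setting was the method's current default. The installed version defaults to its legacy form, which was run first. The version 4 form was taken as the main one after that output had been seen, and the legacy form is an alternative. Within a line, ratios carry exact 95% binomial counting intervals, which cover counting error only, since the reads carry no molecular identifiers. Levels per kb use the union of exons in GENCODE release 44 on GRCh37, from which splice sites were also read.

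The 9 genes and the lists were chosen with earlier results of these data known. From each list at most 4 genes are named, those with the largest change among genes with an adjusted p under 0.05 and a mean of at least 50 counts, or the 2 with the highest mean count where none passed. Alternatives were upper-quartile and total-count scaling, DESeq2 1.42.0, limma-voom (limma 3.58.1), no filter, the replicate block, and leaving out each siRNA sample or line. The legacy form and leaving out 2 pseudogenes that resemble ribosomal RNA were added after seeing the data. The procedures were tested on simulated data. The test of the luminal marker list is not reported here.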

Additional observations from a re-analysis of the deposited data

Results flagged for a closer look

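The Veh level, the Dox level and the log2 ratio of Dox to Veh were each compared among the 4 lines for each gene, which made 27 groups. In 2 of them a value stood far from the other 3 lines by Dixon's ratio, where chance gives about 1 in 20 groups. The 27 groups are not independent, since the ratio is made from the Veh and Dox levels, and 2 of 27 is close to that share. CLK4 in WT was at 0.23, while the mutant lines were at -0.28 to -0.35 (ratio 0.873). CCNL2 in K450RK451R was at 0.089, while the other lines were at -0.52 to -0.55 (ratio 0.944). In both genes the line also went in the opposite direction to the others. Those differences between lines were not tested, because each line has 1 sample per treatment, and both counting intervals include 0. Under upper-quartile and total-count scaling CLK4 in WT was at 0.24 and 0.27, and CCNL2 in K450RK451R at 0.036 and 0.22.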

How the results depend on the processing

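All 9 genes stayed lower with Dox in the 10 alternatives, and none reached an adjusted p under 0.05 with siEHMT1 in any alternative that gave one (lowest for CCNL2, adjusted p = 0.0536 over its 12 settings). The 3 scalings left 7 genes lower in all lines, and the genes without overlap between Dox and Veh were 3 with total-count scaling in place of 5. The median of the 9 genes with Dox was -0.34 to -0.50 when 1 line was left out, with the larger drop without the K450RK451R line.

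Genes lower with siEHMT1 (10) numbered 5 with upper-quartile scaling, 6 with limma-voom, 4 without a filter and 18 to 82 when 1 sample was left out. Genes higher (9) numbered 15 with total-count scaling, 2 with DESeq2 and 20 to 41 when 1 sample was left out. With the replicate block they were 62 and 56. The numbers are not known to mark a pairing, and the block called none of the 9 genes but did call NEAT1, MALAT1, MT-CO1 and MT-CO3. Genes lower with Dox (213) numbered 108 with total-count scaling, 117 with DESeq2 and 94 to 320 when 1 line was left out, and genes higher (85) 326, 23 and 20 to 181. The detained intron genes that passed (7) were 2, 4 and 1 to 8 in the same settings.

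Some small values changed sign. With siEHMT1, CLK1 was at 0.0076 with total-count scaling and between -0.15 and 0.083 when 1 sample was left out. Leaving out 1 sample gave -0.0086 to 0.16 for LUC7L, -0.071 to 0.30 for CCNL1, -0.14 to 0.58 for C1orf63, -0.10 to 0.34 for OGT, -0.018 to 0.97 for NEAT1 and -0.15 to 0.93 for MALAT1. With Dox, total-count scaling gave 0.066 for HIPK3 and 0.059 for CCNT1, and leaving out 1 line gave -0.053 to 0.024 for HIPK3. The cause of these shifts was not tested. Leaving out a siRNA sample leaves 1 sample in its group, which is then assumed to vary like the other group. Depth limits LUC7L, LUC7L3 and CLK4 most.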
